A study of Mus musculus with 48 samples.

Results

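Interferon-stimulated genes are genes whose transcription rises when a cell receives an interferon signal, and this account describes the chromatin accessibility of 42 of them in CD8 T cells taken from mouse tumours. Accessibility was measured by ATAC-seq, where Tn5 transposase tags open DNA with adapters, and the tagged reads were counted in 53868 peaks. A peak was assigned to a gene when it overlapped the body of a protein-coding gene, and to the one with the nearest boundary where several overlapped. Any other peak went to the nearest gene body within 100 kb. By that rule 38 of the 42 genes had 100 peaks in all, of which 69 overlapped the gene body, 31 lay outside it and 32 held an annotated transcription start. Ifit1 and Ifi44 received no peak, and Mx1 and Mx2 are transcribed pseudogenes in the gene table, so these 4 were left out. Peaks of a gene are numbered by their mean value over all libraries, so that peak 1 is the strongest. The strongest peak held an annotated start in 27 of the 38 members, 12 members had a single peak, and Sp100 had the most, 10. The strongest Samd9l peak held the start of another gene, Gm20559, and lay 25817 bp outside the Samd9l body. The Samd9l start lay in peak 2, and each of these peaks is counted among the 32.

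Type I interferons bind the receptor made of Ifnar1 and Ifnar2 and activate the kinases Jak1 and Tyk2, which phosphorylate Stat factors such as Stat2. Stat2 enters, with Irf9, a complex that binds the interferon-stimulated response element (ISRE), a pair of GAAA-like blocks in the promoters of many of these genes. Interferon gamma acts through Jak1 and Jak2 on the gamma-activated site (GAS), and it induces Irf1, a factor that also binds ISREs. In CD8 T cells type I interferon acts during priming, and prolonged signalling in tumours and chronic infection accompanies exhaustion.

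The cells were CD45.1 OT-1 T cells, whose receptor recognises an ovalbumin peptide, and all of them carried Cas9. Before transfer, each cell received a lentiviral vector with 1 guide RNA and the ametrine reporter. The recipients were young or aged mice that were inoculated a day later with B16-OVA, a melanoma line that expresses ovalbumin, and the T cells were sorted from the tumours on day 15. The labels name 3 perturbations: knockout of Zfp219, which encodes a zinc finger protein, knockout of Dusp5, which encodes a phosphatase of the MAP kinase ERK, and the control, labelled OTC. Within each, the sort separated progenitor exhausted cells (Tprog, Slamf6+ Tim-3-), transitory effector-like cells (Ttran, Slamf6+ Tim-3+) and terminally exhausted cells (Tterm, Slamf6- Tim-3+). From aged hosts, age-associated dysfunctional cells (Ttad, Slamf6- Tim-3-) were sorted as well. This gave 21 groups and 48 libraries, with 15 groups of 2 and 6 groups of 3. Cells of independent mice were pooled into each replicate, with 5000 to 50000 cells per combination, so p-values measure the spread between these pools. The fit took every library as independent, although different sorted states could come from the same pool. Donor cells were of the same kind for both hosts, so age here is that of the host. An accessibility count does not show a Cas9 edit, and the guides, the editing rates and the host ages in months are not given in the sources used here.

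The response element was present in many of the promoters studied here, and 7 of them are shown as examples. Their peaks passed a test with host age, with the Zfp219 knockout or with both. Peaks of other promoters with a match, such as those of Ddx58 and Trim21, also passed and are not shown. A match is GAAA, any 2 bases and GAAA again, or the reverse complement of that run, and capitals mark each match in the RefSeq promoter table (build GRCm38.p6). The first 3 sequences are the 250 bases before the start of Rsad2 (chr12:26456453-26456702, minus strand), Ifit3 (chr19:34583279-34583528, plus strand) and Isg15 (chr4:156200819-156201068, minus strand), each read along the gene. The shorter ones are the match with its flanks in Gbp2 (chr3:142620592-142620625, plus), Gbp5 (chr3:142496757-142496790, plus), Oas3 (chr5:120777713-120777746, minus) and Stat2 (chr10:128270264-128270297, plus).
Rsad2: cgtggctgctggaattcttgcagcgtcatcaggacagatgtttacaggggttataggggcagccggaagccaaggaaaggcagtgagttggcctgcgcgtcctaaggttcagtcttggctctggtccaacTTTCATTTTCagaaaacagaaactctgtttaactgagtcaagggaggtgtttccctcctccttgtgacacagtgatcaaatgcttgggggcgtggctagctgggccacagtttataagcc
Ifit3: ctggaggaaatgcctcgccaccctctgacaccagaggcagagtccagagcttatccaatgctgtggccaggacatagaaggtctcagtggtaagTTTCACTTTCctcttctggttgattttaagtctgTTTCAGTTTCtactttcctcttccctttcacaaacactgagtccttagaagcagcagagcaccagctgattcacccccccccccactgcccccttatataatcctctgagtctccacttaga
Isg15: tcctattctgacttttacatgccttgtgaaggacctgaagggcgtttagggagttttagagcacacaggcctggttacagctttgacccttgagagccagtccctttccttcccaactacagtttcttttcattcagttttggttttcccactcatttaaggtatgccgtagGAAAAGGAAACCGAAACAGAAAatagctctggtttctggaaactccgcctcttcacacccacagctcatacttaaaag
Gbp2: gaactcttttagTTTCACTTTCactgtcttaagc
Gbp5: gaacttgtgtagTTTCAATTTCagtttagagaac
Oas3: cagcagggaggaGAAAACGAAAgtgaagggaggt
Stat2: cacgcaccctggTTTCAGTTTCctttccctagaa
Counted from the start, the match of Rsad2 began at base -120. Ifit3 held 2 matches, the first at base -156, and Isg15 held 3 that overlap in 1 run from base -78. Over all members, 30 had at least 1 promoter window in the table (300 bases, from 250 before the start to 50 after it), and 14 of these 30 held an ISRE match on either strand. Counted by window, 14 of 39 member windows (35.9%) held one, beside 3.44% of all 32851 windows. The GAS letters TTCNNNGAA occurred in 9 of the 39 windows (23.1%), beside 8.30% of all windows, and in 1 window both kinds of match overlapped. A match is a description of the letters, and binding was not tested.

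Reads in peaks ranged from 5638413 to 29942755 per library, from 5638413 to 16159054 in the 24 aged and from 6589023 to 29942755 in the 24 young libraries. All 5 marker genes of the sorted lineage, Cd8a, Cd8b1, Cd3e, Cd3d and Cd3g, had peaks with reads in every library. Of the CD4 T cell genes, Cd4 had 2 peaks (142 to 517 per library at the stronger) and Foxp3 had none. The B cell genes Ms4a1 and Cd79a, the myeloid genes Lyz2, Csf1r and Adgre1 and the melanoma genes Tyr, Dct and Tyrp1 had no peak. The other listed myeloid genes did, with means at the strongest peak of 593 for Cd68, 422 for Itgam and 5.65 for Siglech. So did the other melanoma genes, with 527 for Pmel, 210 for Sox10 and 168 for Mlana. The column names number the libraries anew within each age, so host age cannot be told apart from the set in which the libraries were prepared and read. Read depth overlapped between the ages over all libraries. In the OTC libraries of Tprog, Ttran and Tterm it was 8547780 to 14780826 in aged and 12629361 to 29942755 in young hosts. Of those young libraries, only the Ttran replicate 3 lay within the aged range, so depth went largely with host age there. In bulk libraries, a smaller share of cells with an open site also cannot be told apart from less access per cell.

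Peaks of the interferon-stimulated genes were less accessible in control cells from aged hosts than in those from young hosts. Of the 100 member peaks, 50 were lower and 0 were higher in aged OTC libraries (limma, Benjamini-Hochberg adjusted p under 0.05 over all peaks, mean of Tprog, Ttran and Tterm), against 19.1% lower and 17.3% higher among all 53868 peaks. At an unadjusted p under 0.05 the counts were 56 lower and 3 higher, and edgeR's quasi-likelihood test on the recovered reads gave 52 and 1. The 50 peaks belonged to 31 of the 38 members. The median log2 difference over the 100 peaks was -0.26, beside 0.0023 over all peaks. Start peaks moved in the same direction, with 25 of 32 lower and 0 higher, where among all 9981 peaks with an annotated start 13.4% were lower and 16.4% higher. No start peak was higher at an unadjusted p, and edgeR called 26 lower and 0 higher. Taken by state, Tprog had 29 lower peaks, Ttran had 28 and Tterm had 32, and 0 were higher in each. The shares of all peaks were 9.04% lower and 6.36% higher in Tprog, 9.58% and 8.73% in Ttran, and 8.77% and 10.2% in Tterm. At an unadjusted p, 2, 3 and 3 member peaks were higher in these states, and edgeR called 0, 1 and 0 higher. Values are reads divided by 1 scaling factor per library, and differences are on the log2(value + 1) scale, with the standard error (SE) after ±.

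**Figure D1:**
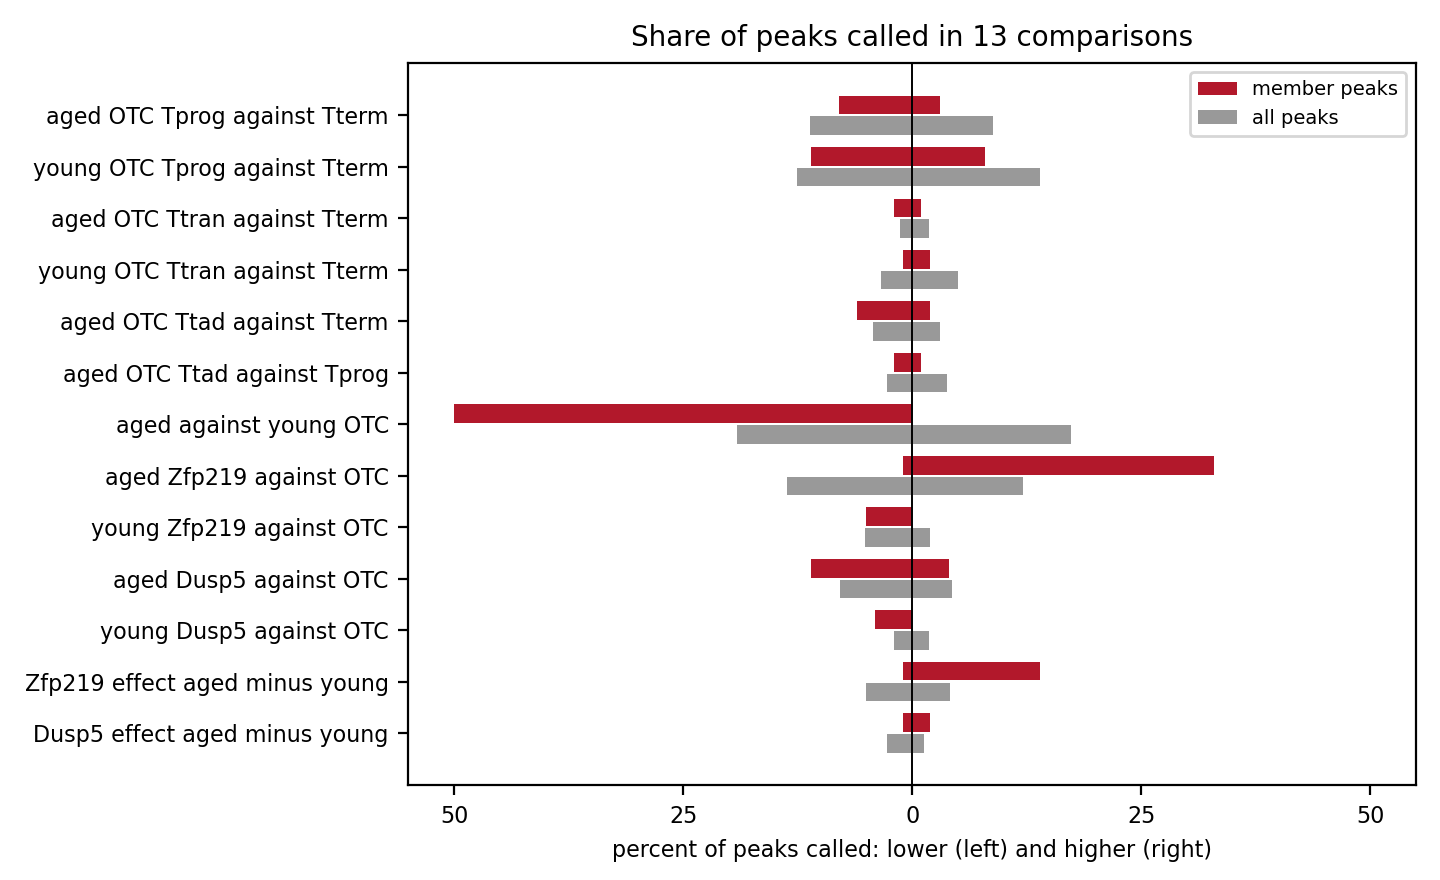
Percent of peaks called at adjusted p under 0.05 in 13 comparisons, for the 100 member peaks (red) and all 53868 peaks (grey), with lower peaks to the left of 0 and higher peaks to the right. The longest red bars are the 50 peaks lower with host age in OTC libraries and the 33 peaks higher with the Zfp219 knockout in aged hosts.

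Among the antiviral effectors, 10 of the 12 strongest peaks were lower in aged OTC cells and 0 were higher, with a median of -0.37. Ifit3 encodes an interferon-induced protein of the family that binds foreign RNA. Its start peak (chr19:34582631-34583674) had 336 and 388 normalized reads in aged Tprog, 346 and 359 in Ttran and 331 and 397 in Tterm. In young hosts it had 569 and 595 in Tprog, 521, 553 and 631 in Ttran and 538, 555 and 578 in Tterm. No aged control library of these states reached any young one, and the log2 difference was -0.66 ± 0.07 (limma adjusted p = 9.92e-13). The start peak of Oasl1, a member of the oligoadenylate synthetase-like family, ranged from 244 to 328 over the 6 aged libraries and from 377 to 589 over the 8 young ones. The ranges did not overlap, with a difference of -0.74 ± 0.07 (adjusted p = 2.38e-15). Rsad2 encodes viperin, an antiviral enzyme, and its start peak (chr12:26456016-26456800) had 148 to 206 in aged and 202 to 320.0 in young control libraries. Here 1 aged Ttran library lay within the young range, and the ages did not overlap in Tprog or in Tterm (-0.58 ± 0.10, adjusted p = 1.82e-06).

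Some effector peaks with fewer reads gave larger differences. Peak 2 of Ifit2, a relative of Ifit3, was 9.03 to 19.5 in aged and 23.96 to 52.8 in young control libraries, without overlap (-1.47 ± 0.27, adjusted p = 4.99e-06), whereas the strongest Ifit2 peak was not called (-0.09 ± 0.08, adjusted p = 0.384). The strongest peak of Rtp4, an interferon-induced gene with antiviral activity, was 17.4 to 84.9 in aged and 62.7 to 113 in young libraries (-1.07 ± 0.18, adjusted p = 1.07e-06). An aged Tprog library lay among the young ones there. Peak 2 of Bst2, the gene for the virus-tethering protein tetherin, was 30.2 to 69.2 in aged and 66.4 to 159 in young libraries, which met at their ends (-1.07 ± 0.18, adjusted p = 4.64e-07). The Ifit1 promoter peak (chr19:34640046-34641212) was assigned by the rule to the neighbour Ifit1bl2 and is not counted among the members. Ifit1 had 69.2 to 152 reads there in aged and 186 to 261 in young control libraries, which did not overlap.

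Of the nucleic acid sensors, 4 of 5 strongest peaks were lower in aged OTC cells. Zbp1 recognises Z-form nucleic acids, and its strongest peak, over the gene body (chr2:173218068-173219897) was 472 to 602 in aged and 672 to 810.3 in young control libraries. These ranges did not overlap, and the difference was -0.46 ± 0.06 (limma adjusted p = 2.43e-10). The start peak of Ddx58, which encodes the RNA sensor RIG-I, was 241 to 306 in aged and 326 to 447 in young libraries, again without overlap (-0.43 ± 0.08, adjusted p = 5.42e-06). Ifih1, the gene for the sensor MDA5, had 282 to 371 in aged and 334 to 491 in young libraries at its strongest peak, and the ranges overlapped (-0.31 ± 0.08, adjusted p = 0.00108). Dhx58, the gene for the related helicase LGP2, was 386 to 509 and 447 to 613 (-0.25 ± 0.07, adjusted p = 0.00192). The peak of Eif2ak2, the gene for the kinase PKR, was not called (0.07 ± 0.12, adjusted p = 0.716).

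In the ubiquitin-like and ADP-ribosylation system, 7 of 8 strongest peaks were lower. Isg15 encodes the ubiquitin-like modifier, and its start peak was 79.7 to 137 in aged and 134 to 185 in young control libraries (-0.47 ± 0.13, adjusted p = 0.00176). The ranges overlapped at their ends. Herc6, the gene for the ligase that attaches Isg15 in mouse, was 270.3 to 383 in aged and 402 to 504 in young libraries, without overlap (-0.54 ± 0.08, adjusted p = 3.73e-09). Usp18 removes Isg15 from proteins and restrains the type I receptor. A peak 6881 bp outside its gene body (Usp18 peak 3, chr6:121237963-121239025) had 86.1 and 92.3 in aged Tprog, 63.2 and 65.4 in Ttran and 112 and 135 in Tterm, against 176 to 261 over the 8 young libraries. Every aged value was below every young one, and the difference was -1.22 ± 0.12 (limma adjusted p = 2.70e-15). Usp18 peak 1, over the gene body, differed less (-0.21 ± 0.09, adjusted p = 0.0455), and that call was lost without any 1 of 9 libraries (adjusted p up to 0.163). For Trim25, a ligase that acts on RIG-I, the call (-0.16 ± 0.06, adjusted p = 0.0299) was lost without any 1 of 6 libraries (adjusted p up to 0.198).

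Among the factors, the promoter peaks of Irf7 and Irf9 were lower and those of Irf1 and Stat2 were not called. Irf7, which amplifies type I interferon production, was 1034 to 1245 at its start peak in aged and 1201 to 1462 in young control libraries (-0.25 ± 0.04, adjusted p = 1.80e-06). Irf9, the DNA-binding part of the complex with Stat2, was 612 to 792 and 759 to 984 (-0.34 ± 0.05, adjusted p = 5.02e-08). In both genes the ranges overlapped when libraries of different states were compared. Within each of the 3 states, every aged Irf7 value lay below every young one. For Irf9 this held in 2 of the 3 states, and the ages overlapped in 1. The start peaks of Irf1 (-0.11 ± 0.05, adjusted p = 0.0525) and Stat2 (-0.10 ± 0.06, adjusted p = 0.175) did not pass. Irf1 peak 6, which lies 7053 bp outside the gene body (chr11:53785427-53787184), was 119 to 259 in aged and 292 to 465 in young control libraries. The ranges did not overlap (-1.03 ± 0.10, adjusted p = 1.14e-14). Irf1 peak 3, 5569 bp outside the gene body, was 563 to 707 and 827 to 1019, also without overlap (-0.50 ± 0.06, adjusted p = 3.90e-12).

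Guanylate-binding proteins attack the membranes of intracellular pathogens. Among their 4 strongest peaks, those of Gbp2 (-0.27 ± 0.08, adjusted p = 0.00215) and Gbp5 (-0.26 ± 0.08, adjusted p = 0.00381) were lower in aged OTC cells. The Gbp5 call was lost without the aged OTC Ttran replicate 2 (-0.19, adjusted p = 0.0574). The strongest peaks of Gbp3 (-0.06 ± 0.06, adjusted p = 0.411) and Gbp7 (-0.07 ± 0.08, adjusted p = 0.542) were not called. The annotated Gbp7 start lay in the weaker peak 2, with means of 250 in aged and 323 in young control libraries. Its ranges, 217 to 288 and 239 to 405, overlapped. Sp100 encodes a protein of nuclear bodies, and 5 of its 10 peaks were lower, namely peaks 1, 2, 3, 5 and 6. Sp100 peak 2 (chr1:85686489-85687985) was 183 to 304 in aged and 395 to 499 in young control libraries, without overlap (-0.93 ± 0.08, adjusted p = 8.18e-17). Sp100 peak 6 was 78.1 to 149 and 148 to 251, and the ranges met at their ends (-0.91 ± 0.12, adjusted p = 2.63e-09). The call for Sp100 peak 3 was lost without the OTC Tprog replicate 1, Tterm replicate 2 or Ttran replicate 1 of aged hosts, or the OTC Tprog replicate 1 of young hosts (adjusted p up to 0.0876).

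Other members followed the same direction with age. Xaf1, which antagonises inhibitors of cell death, was 165 to 216 at its strongest peak in aged and 224 to 317 in young control libraries (-0.42 ± 0.10, adjusted p = 0.000623). Trim21, an intracellular antibody receptor, was 291 to 344 and 369.5 to 446 (-0.40 ± 0.07, adjusted p = 5.14e-06), and neither gene's ranges overlapped. The strongest peaks of Samd9l (-0.46 ± 0.09, limma adjusted p = 2.88e-05), Ifi35 (-0.23 ± 0.06, adjusted p = 0.00337), Oasl2 (-0.34 ± 0.08, adjusted p = 0.000138), Isg20 (-0.29 ± 0.05, adjusted p = 6.66e-06) and the ADP-ribosyltransferase Parp14 (-0.27 ± 0.06, adjusted p = 0.000165) were lower as well. That Samd9l peak lies 25817 bp outside the gene body, at the start of Gm20559. The 7 members with no peak called lower were Adar, Eif2ak2, Gbp3, Oas2, Parp9, Stat2 and Tor3a. Of these, Oas2 and Parp9 had few reads, 9.31 to 30.7 and 9.44 to 28.1 in young control libraries.

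**Figure D2:**
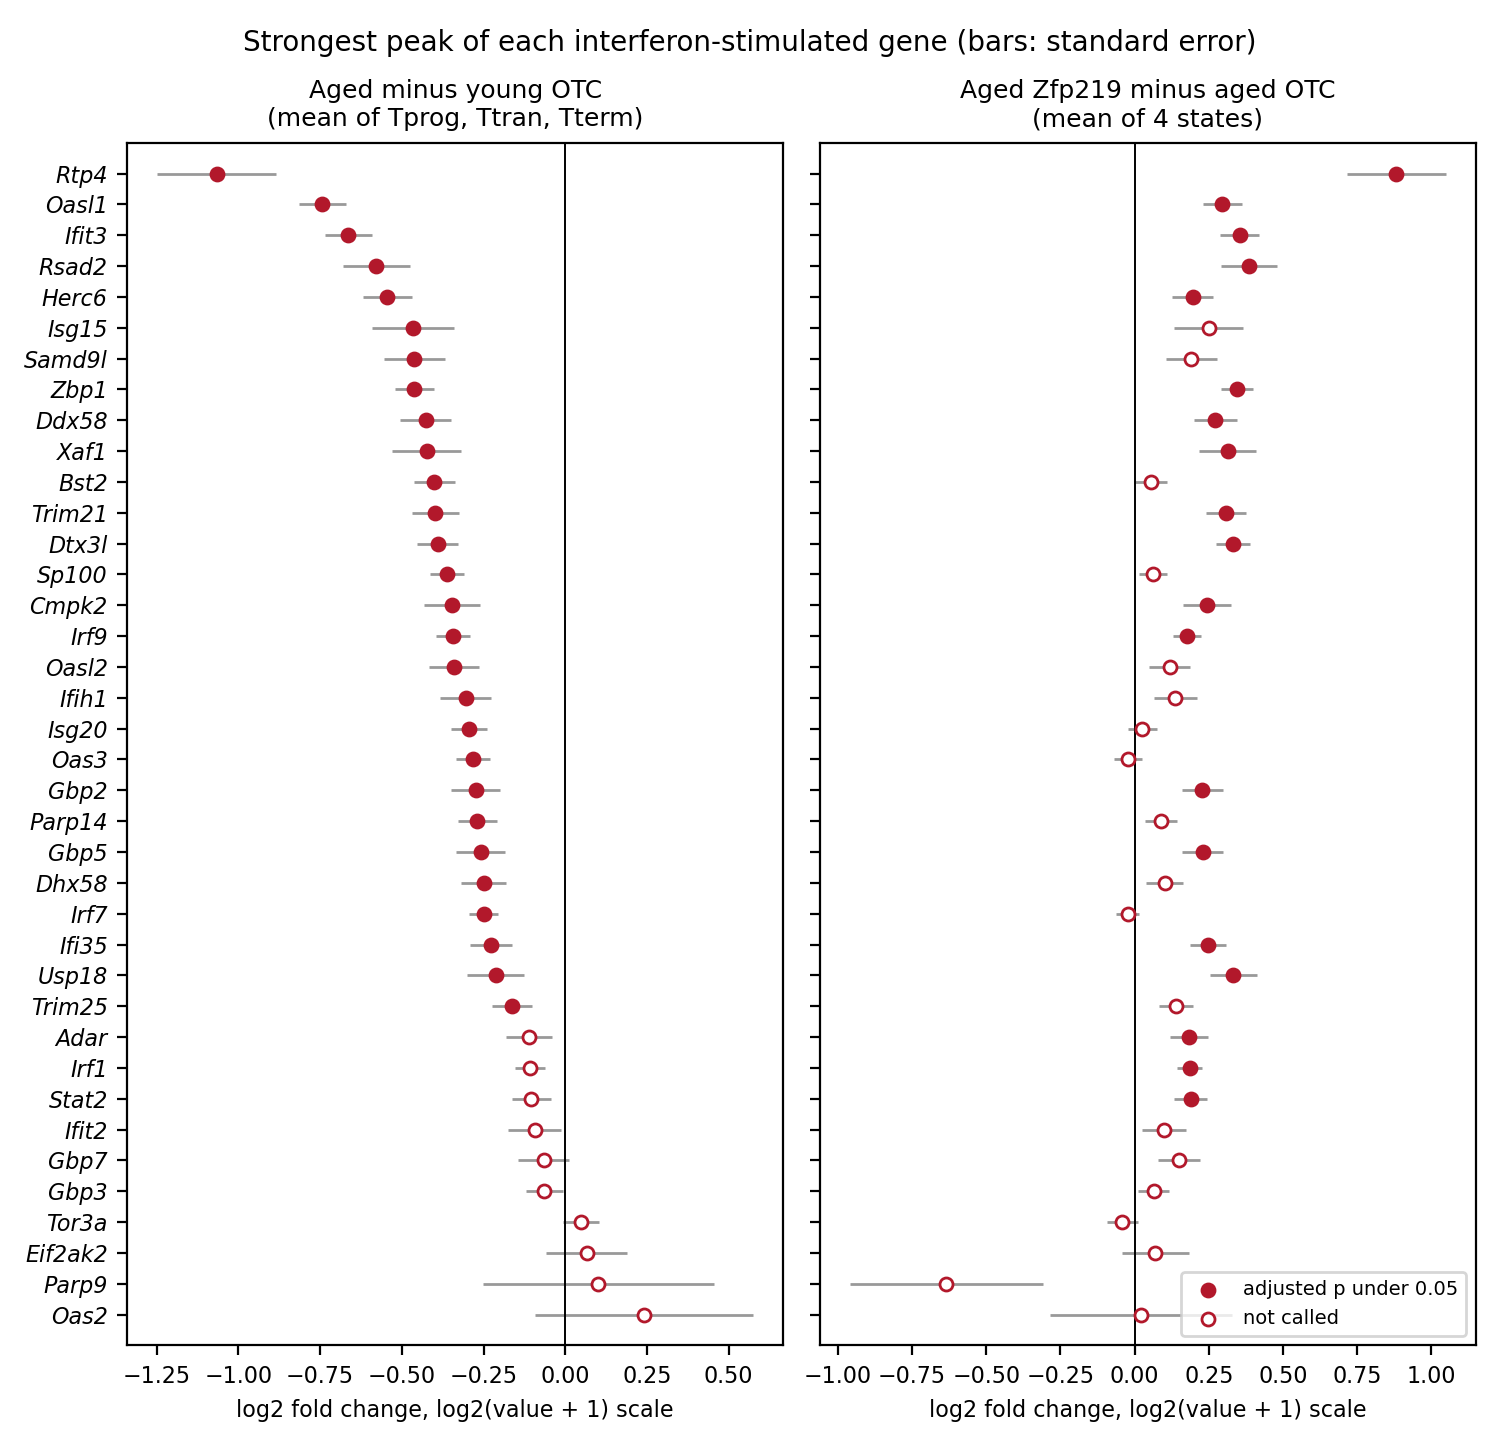
Log2 fold change of the strongest peak of each of the 38 members with its standard error, for aged minus young OTC libraries (left) and for aged Zfp219 minus aged OTC libraries (right), in the order of the left panel. Filled points passed the adjusted p of 0.05: 28 on the left, all below 0, and 19 on the right, all above 0. Both panels use the aged OTC libraries.

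The same comparison was made in the libraries of the other perturbations, an alternative chosen after the data were seen. In Dusp5 libraries, which share no library with the OTC comparison, 44 member peaks were lower and 5 higher in aged hosts, beside 17.3% lower and 14.5% higher among all peaks. Of the 50 peaks lower in OTC, 40 were also lower in Dusp5, which is 80.0% of the first list and 81.6% of the second. Ifit3 peak 1, for example, was 226 to 435 in the 6 aged and 459 to 631 in the 8 young Dusp5 libraries. In Zfp219 libraries 25 member peaks were lower and 4 higher, beside 15.6% and 14.7% among all peaks. The peaks shared with OTC were 23, which is 46.0% of the OTC list and 79.3% of the Zfp219 list. For both perturbations the matching share of all peaks was not computed, so a trait of all peaks is not set apart. Oasl1 was lower with age there (-0.69 ± 0.07, adjusted p = 2.86e-13), whereas Usp18 peak 3 was not called (0.06 ± 0.12, adjusted p = 0.735), with 193 to 223 in the 6 aged libraries without Ttad and 172 to 233 in the 8 young ones.

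Peaks of marker genes also moved with host age. Of 20 peaks at the Cd8 and Cd3 genes, 8 were lower and 0 higher in aged OTC libraries, and their summed level was 8685 to 9612 in aged and 9501 to 10792 in young ones. Of 9 peaks at the myeloid genes Cd68, Itgam and Siglech, 4 were lower and 0 higher, with sums of 1411 to 1806 and 1786 to 2079. Of 4 peaks at the melanoma genes Mlana, Pmel and Sox10, 2 were lower and 0 higher, with sums of 857 to 1015 and 967 to 1263. Of the 2 peaks at Cd4, 1 was lower and 0 higher, with sums of 240.4 to 539 and 410.4 to 572. The part of these differences, and of read depth, in the lower accessibility of the interferon-stimulated genes was not tested.

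In aged hosts, interferon-stimulated genes were more accessible with the Zfp219 knockout than in control cells. Of the 100 member peaks, 33 were higher and 1 was lower in aged Zfp219 than in aged OTC libraries (limma adjusted p under 0.05, mean of the 4 states), beside 12.1% higher and 13.7% lower among all peaks. The median log2 difference was 0.17, beside 0.0064 over all peaks, and 24 of the 38 members had a higher peak. Among start peaks 18 of 32 were higher and 0 lower, where 20.7% of all start peaks were higher and 6.96% lower; at an unadjusted p and by edgeR 0 were lower too. Taken by state, Tprog had 6 higher member peaks, Ttran had 11, Tterm had 4 and Ttad had 16, while no state had a lower one (0). The shares of all peaks that were higher were 1.11%, 5.92%, 1.06% and 3.66% in that order, and the shares that were lower were 1.45%, 8.29%, 2.51% and 4.56%. At an unadjusted p under 0.05, 0, 3, 0 and 2 member peaks were lower in the 4 states, and edgeR called 0 lower in each. This comparison shares the aged OTC libraries with the comparison by age, so no overlap is drawn between them. Reads in peaks were 12793436 and 16034483 in aged Zfp219 Ttran, against 9060635 and 8547780 in aged OTC. In Tterm they were 15249285 and 16159054 against 12447296 and 14780826. In Ttad they were 15723953 and 15700492 against 8059981 and 10929698. Depths overlapped in Tprog, and the part of read depth in these differences was not tested. Of the myeloid marker peaks 3 of 9 were higher (sums of 1503 to 1830 in Zfp219 and 1411 to 1806 in OTC) and of the melanoma marker peaks 2 of 4 were lower (642 to 957 and 857 to 1056), and their part was not tested.

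Usp18 peak 3 differed most. It had 209 and 210.4 in aged Zfp219 Tprog, 193 and 223 in Ttran, 202 and 218 in Tterm and 159 and 193 in Ttad, against 63.2 to 135 over the 8 aged OTC libraries. Every knockout library lay above every control library, and the difference was 1.10 ± 0.11 (limma adjusted p = 2.18e-14). Usp18 peak 1 was 304 to 367 in Zfp219 and 229.7 to 327 in OTC, with some overlap (0.33 ± 0.08, adjusted p = 0.000749). In Sp100, peak 2 was 292 to 392 in Zfp219 and 168 to 304 in OTC (0.62 ± 0.08, adjusted p = 1.75e-10), and within each of the 4 states the knockout values were all above the control values. Sp100 peak 6 was 148 to 184 and 70.2 to 149 (0.78 ± 0.11, adjusted p = 4.54e-08). The strongest Sp100 peak was not called (0.06 ± 0.05, adjusted p = 0.366).

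Among the antiviral effectors, 5 of 12 strongest peaks were higher in aged Zfp219 cells and 0 lower. Ifit3 was 411 to 505 at its start peak against 290.1 to 397 in OTC, without overlap (0.35 ± 0.07, adjusted p = 1.77e-05). Rsad2 was 155 to 229 against 112 to 206, and the ranges overlapped (0.39 ± 0.09, adjusted p = 0.000814). Oasl1 was 294 to 398 against 244 to 328, and its groups did not overlap within any of the 4 states (0.30 ± 0.07, adjusted p = 0.000237). Rtp4, with low values, was 44.8 to 100.0 against 17.4 to 84.9 (0.88 ± 0.17, adjusted p = 1.92e-05), and Ifit2 peak 2 was 16.1 to 61.1 against 9.03 to 20.1 (0.86 ± 0.25, adjusted p = 0.00568). Other effectors did not pass this test. They include the strongest peaks of Isg20, which encodes an RNA exonuclease (0.03 ± 0.05, adjusted p = 0.751), of Bst2 (0.05 ± 0.06, adjusted p = 0.529) and of Oas3 (-0.02 ± 0.05, adjusted p = 0.779). Oas3 makes the oligoadenylates that activate RNase L. Its weaker peak 3, which holds the annotated start and the printed response element, was higher (0.41 ± 0.11, adjusted p = 0.00171). Ifit1 had 139 to 218 in Zfp219 and 69.2 to 152 in OTC libraries at the promoter peak assigned to Ifit1bl2 (0.57 ± 0.11, adjusted p = 1.14e-05).

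Of the 5 sensors, Zbp1 and Ddx58 were higher at their strongest peaks. Zbp1 was 579.9 to 738 in aged Zfp219 and 461 to 602 in aged OTC libraries (0.34 ± 0.05, adjusted p = 2.83e-07), and within states the groups overlapped in Tterm. Ddx58 was 307 to 351 against 241 to 306, without overlap (0.27 ± 0.07, adjusted p = 0.00252). Ifih1 peak 1 was not called (0.14 ± 0.07, adjusted p = 0.162), and the call for Ifih1 peak 2 (0.47 ± 0.18, adjusted p = 0.042) was lost without any 1 of 12 libraries (adjusted p up to 0.103). Among the factors, the start peak of Irf1 was 1166 to 1289 against 1008 to 1144, without overlap (0.19 ± 0.04, adjusted p = 0.000287). Those of Irf9 (0.18 ± 0.05, adjusted p = 0.00316) and Stat2 (0.19 ± 0.06, adjusted p = 0.0065) were also higher, and Stat2 was not called without the aged Zfp219 Ttad replicate 2 (0.15, adjusted p = 0.052). Irf7 was not called (-0.02 ± 0.04, adjusted p = 0.713). Irf1 peak 6 was 176 to 284 against 88.9 to 259, and its groups did not overlap within any of the 4 states (0.56 ± 0.09, adjusted p = 1.41e-06).

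In the ubiquitin-like and ADP-ribosylation system, 4 of 8 strongest peaks were higher, those of Usp18, Trim21, Dtx3l and Herc6. Dtx3l is a ligase that works with Parp9, and its start peak, which overlaps a second gene body, was 649.7 to 769.8 in aged Zfp219 and 448 to 691 in aged OTC (0.33 ± 0.06, adjusted p = 4.27e-06). Dtx3l peak 2, 20354 bp outside the gene body, was the 1 member peak called lower (-0.24 ± 0.08, adjusted p = 0.0151), and that call was lost without the aged OTC Tprog replicate 2, Tterm replicate 2 or Ttran replicate 1, or the aged Zfp219 Ttad replicate 1 or Ttran replicate 1 (adjusted p up to 0.0718). The Herc6 call (0.20 ± 0.07, adjusted p = 0.0268) was lost without any 1 of 6 libraries (adjusted p up to 0.155). Isg15 was 121 to 165 against 79.7 to 137 and was not called (0.25 ± 0.12, adjusted p = 0.102). Of the guanylate-binding proteins, Gbp2 (0.23 ± 0.07, adjusted p = 0.00848) and Gbp5 (0.23 ± 0.07, adjusted p = 0.00821) were higher, the latter not called without the aged OTC Ttran replicate 2 (0.18, adjusted p = 0.0589). Gbp7 peak 4, within the gene body, was 73.9 to 150.0 against 49.8 to 91.5 (0.60 ± 0.14, adjusted p = 0.000729). Gbp7 peak 2, which holds the annotated start, was 219 to 405 against 217 to 288, with means of 320 and 246. The call for Adar, an RNA-editing enzyme (0.18 ± 0.06, adjusted p = 0.0264), was lost without any 1 of 7 libraries (adjusted p up to 0.0883). That for Cmpk2, a mitochondrial nucleotide kinase (0.24 ± 0.08, adjusted p = 0.0158), was lost without the aged OTC Tprog replicate 1 or Tterm replicate 2, or the aged Zfp219 Ttran replicate 1 (adjusted p up to 0.0688).

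**Figure D3:**
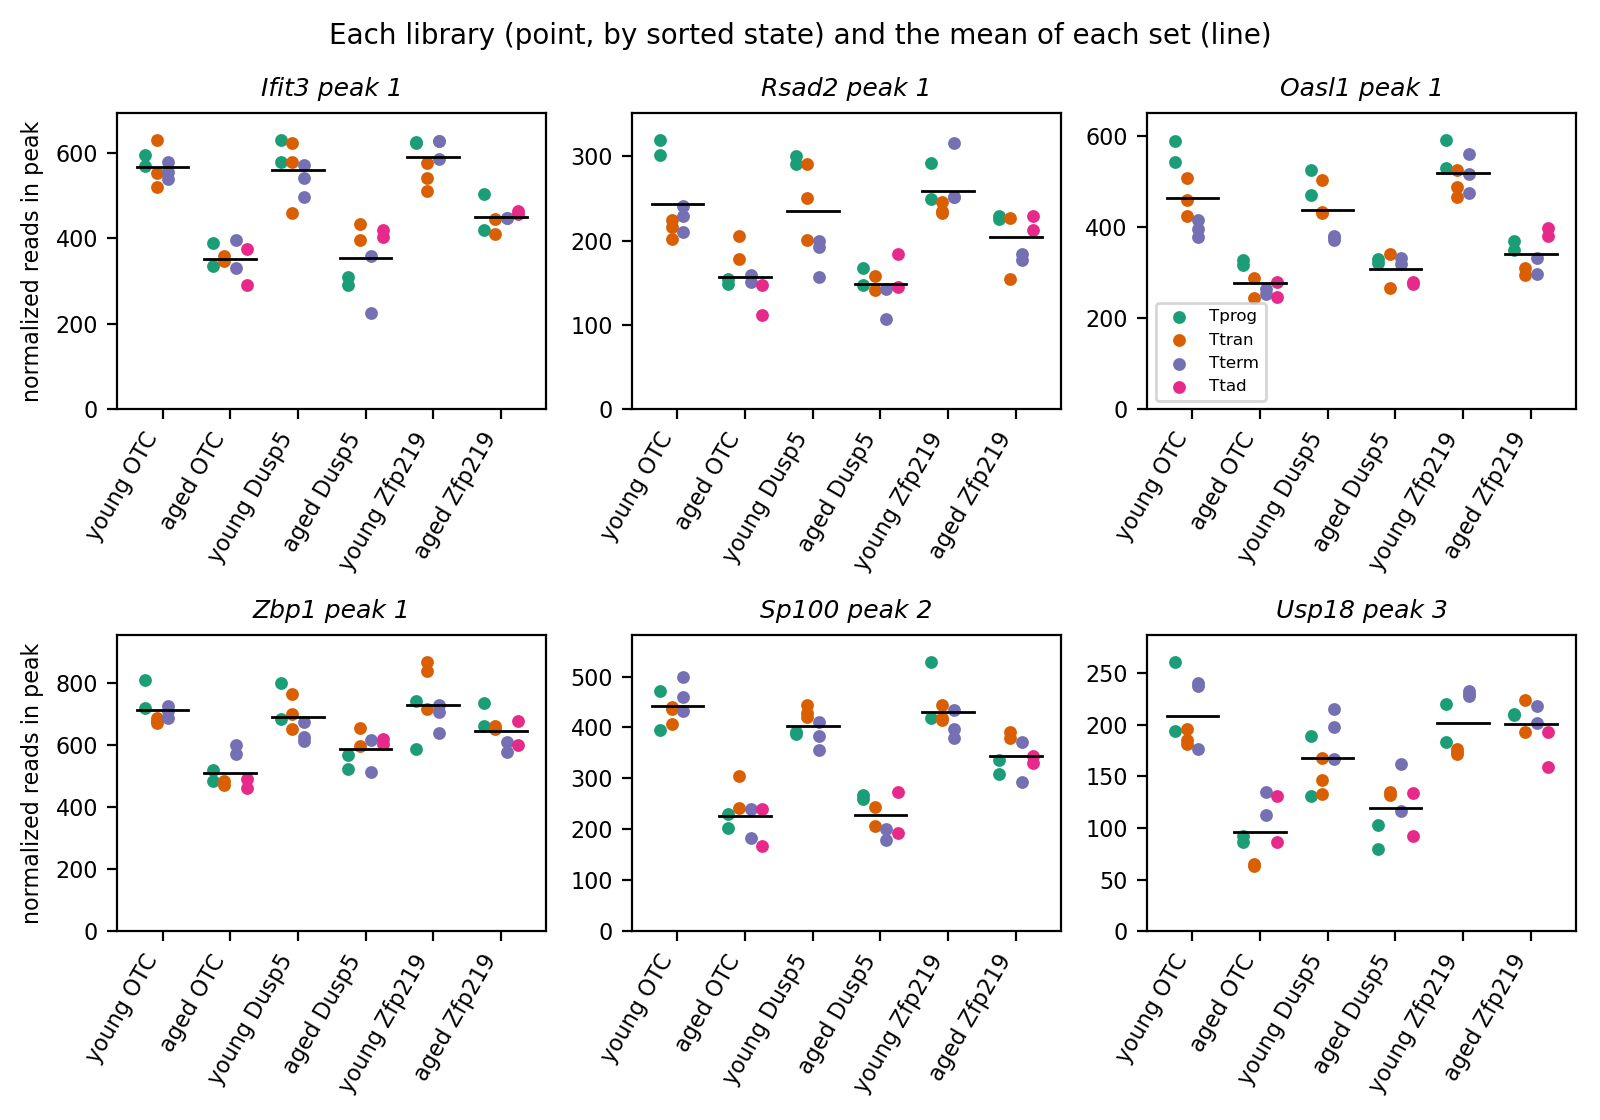
Normalized reads (from 0, linear axis) in every library for 6 member peaks, with points coloured by sorted state and a line at the mean of each set of age and perturbation. In all 6 panels the aged OTC points lie mostly below the young OTC points, and for Usp18 peak 3 the aged Zfp219 points (159 to 223) lie near the young Zfp219 points (172 to 233).

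Further strongest peaks that were higher with the knockout included Xaf1, with 166 to 272 in aged Zfp219 against 163 to 216 in aged OTC (0.31 ± 0.10, adjusted p = 0.00946), and Trim21 (0.31 ± 0.07, adjusted p = 0.000203). The peak of Ifi35 was 460.2 to 565 against 394 to 469 (0.25 ± 0.06, adjusted p = 0.000784), and its groups did not overlap within any of the 4 states. In contrast, the strongest peaks of Samd9l (outside its gene body, 0.19 ± 0.09, limma adjusted p = 0.0911), Oasl2 (0.12 ± 0.07, adjusted p = 0.212) and Parp14 (0.09 ± 0.06, adjusted p = 0.246) did not pass. The 14 members with no peak called higher were Bst2, Dhx58, Eif2ak2, Gbp3, Irf7, Isg15, Isg20, Oas2, Oasl2, Parp14, Parp9, Samd9l, Tor3a and Trim25.

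Against aged Dusp5 in place of aged OTC, an alternative added after the data were seen, 37 member peaks were higher and 2 lower in aged Zfp219, beside 11.6% and 10.7% among all peaks. Of these, 23 were called in the same direction against OTC as well, 67.6% of the list against OTC and 59.0% of the list against Dusp5. Both lists use the aged Zfp219 libraries, and the matching share of all peaks was not computed. The called peaks with the largest differences from Dusp5 were Irf1 peak 6 (0.85), Usp18 peak 3 (0.77) and Sp100 peak 6 (0.77).

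**Figure D4:**
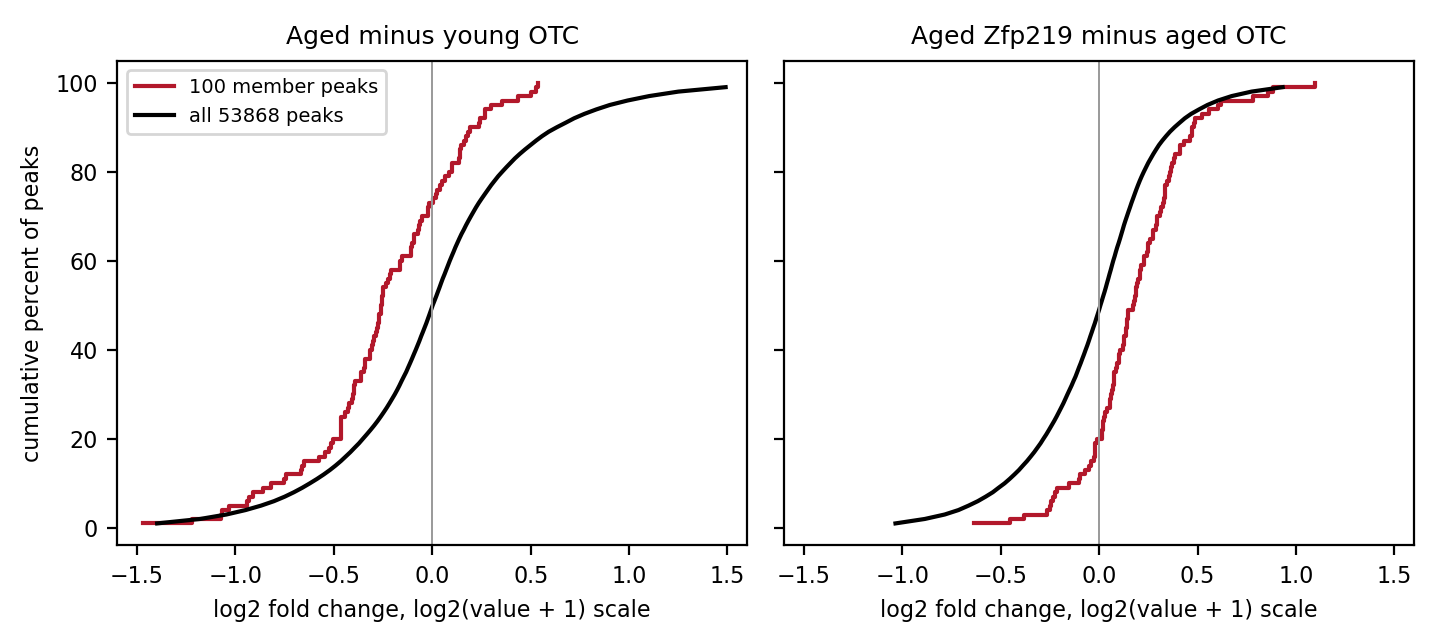
Cumulative percent of peaks (vertical) against their log2 fold change (horizontal) for the 100 member peaks (red) and all 53868 peaks (black, percentiles 1 to 99), in aged minus young OTC (left) and aged Zfp219 minus aged OTC (right). The member curve has its median at -0.26 on the left and 0.17 on the right, and the curve of all peaks at 0.0023 and 0.0064.

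In young hosts 0 of the 100 member peaks were higher and 5 were lower in Zfp219 than in OTC (limma), beside 1.92% higher and 5.15% lower among all peaks. At an unadjusted p under 0.05 the counts were 5 and 12, and edgeR gave 0 and 6. The calls that stood with any 1 library left out were Oas3 peak 1 (-0.26 ± 0.05, adjusted p = 8.87e-05) and the strongest peak of Tor3a, which encodes an ATPase of the endoplasmic reticulum (-0.23 ± 0.05, adjusted p = 0.00173). The count was 3 without the young OTC Tterm replicate 3. Against young Dusp5, 6 member peaks were higher and 3 lower, beside 2.76% and 5.4% among all peaks. Usp18 peak 3 had 172 to 233 in young Zfp219 and 176 to 261 in young OTC, and Ifit3 peak 1 had 510.2 to 628 and 521 to 631, so both pairs of ranges overlapped.

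The difference between the ages was itself tested as an interaction. Taken with its sign, the Zfp219 effect was more positive in aged than in young hosts for 14 member peaks and more negative for 1, beside 4.09% and 5.01% among all peaks. At that 1 peak, Dtx3l peak 2, the effect changed sign. Its mean over Tprog, Ttran and Tterm libraries was 233 in Zfp219 and 263 in OTC in aged hosts, and 318 and 273 in young hosts. Usp18 peak 3 had the largest called difference, 1.28 ± 0.17 (limma adjusted p = 1.45e-08). Calls that also stood with any 1 library left out included Sp100 peak 6 (0.68 ± 0.18, adjusted p = 0.00571), Sp100 peak 2 (0.60 ± 0.12, adjusted p = 0.000145), Ddx58 (0.48 ± 0.11, adjusted p = 0.00194) and Zbp1 (0.32 ± 0.08, adjusted p = 0.00676). For Ifit3 (0.25 ± 0.10, adjusted p = 0.113), Rsad2 (0.19 ± 0.14, adjusted p = 0.47) and Oasl1 (0.06 ± 0.10, adjusted p = 0.798) no difference between the ages was called, which does not show that the effect was equal.

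The Dusp5 knockout was compared with the same OTC libraries, and fewer member peaks were called. In aged hosts 4 were higher and 11 lower than in OTC, beside 4.35% and 7.87% among all peaks. With quantile normalization 4 were higher and 3 lower, and with the compared groups alone 3 were higher and 4 lower. Of the 2 Cd4 peaks, 1 was lower too, and its part was not tested. Of the 12 of these called peaks that were refitted without each library, the calls of Irf7 (-0.20 ± 0.04, adjusted p = 0.000105), Irf1 peak 2 (-0.19 ± 0.04, adjusted p = 0.00116) and Zbp1 (0.20 ± 0.05, adjusted p = 0.00524) stood every time. In young hosts 0 were higher and 4 lower, beside 1.8% and 2.02% among all peaks. At an unadjusted p 2 were higher and 15 lower, and edgeR gave 0 and 7. The call of Trim25 peak 2 (-0.66 ± 0.15, adjusted p = 0.00338) stood with any 1 library left out, and the count was 1 to 4 over those fits. It was 1 without the Dusp5 Tterm replicate 1, the OTC Tprog replicate 2 or the OTC Tterm replicate 2, and 2 without the Dusp5 Tterm replicate 2 or the OTC Ttran replicate 2 or 3. Taken with its sign, the Dusp5 effect was more positive in aged hosts for 2 member peaks and more negative for 1, beside 1.27% and 2.73% among all peaks. Those were Usp18 peak 3 (0.75 ± 0.17, adjusted p = 0.00195), Sp100 peak 5 (0.71 ± 0.16, adjusted p = 0.00291) and Dtx3l peak 2 (-0.51 ± 0.12, adjusted p = 0.00556). Without the aged OTC Tprog replicate 1 the count was 5. At Dtx3l peak 2 the mean over Tprog, Ttran and Tterm libraries was 212 in Dusp5 and 263 in OTC in aged hosts. In young hosts it was 312 and 273, so the effect changed sign.

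Between sorted states of control cells, member peaks were called in both directions in every comparison. In aged OTC, 3 were higher and 8 lower in Tprog than in Tterm, beside 8.88% and 11.2% among all peaks. The count of 11 was 7 without the Tprog replicate 1 and 7 without the Tterm replicate 2. Ifih1 peak 2, within the gene body, had 21.3 and 21.5 in aged Tprog, 46.2 and 54.2 in Ttran, 66.5 and 86.1 in Tterm and 16.8 and 19.7 in Ttad. Its values in both Tim-3+ states were above those in both Tim-3- states, and the Tprog to Tterm difference was -1.78 ± 0.36 (limma adjusted p = 7.23e-05). Irf1 peak 4, 24583 bp outside the gene body, had 174 and 183 in Tprog and 349 and 385 in Tterm (-1.03 ± 0.17, adjusted p = 5.48e-07). The strongest peaks of Oasl2 (213 and 257 in Tprog, 385 and 392 in Tterm) and Gbp7 (265 and 269.7 in Tprog, 398 and 479 in Tterm) were also lower in Tprog, without overlap.

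In young OTC, 8 were higher and 11 lower in Tprog than in Tterm, beside 13.9% and 12.6% among all peaks. Without the Tprog replicate 2 the count was 8, and it was 12 without the Tprog replicate 1, the Tterm replicate 2 or the Tterm replicate 3. Oasl1 was higher in Tprog, with 544 and 589 against 377, 397 and 417 in Tterm (0.51 ± 0.12, adjusted p = 0.000453), and so was Oas3 peak 1 (0.52 ± 0.09, adjusted p = 9.72e-07). Irf1 peak 4 was lower, with 232 and 269 against 397, 409 and 449 (-0.74 ± 0.15, adjusted p = 6.39e-05). In Ttran against Tterm, 1 member peak was higher and 2 were lower in aged OTC (1.87% and 1.35% of all peaks), and 2 were higher and 1 lower in young OTC (5.02% and 3.36%). With edgeR these were 1 higher and 1 lower in aged, as with quantile normalization, and 5 higher and 1 lower in young OTC. None of those 6 limma calls stood in every fit with 1 library left out. The aged count was 1 without the Tterm replicate 1, and the young count 1 without the Tterm replicate 1 or 2 or the Ttran replicate 1. In the Ttad cells of aged hosts, 2 were higher and 6 lower than in Tterm (3.02% and 4.26% of all peaks), and 1 was higher and 2 lower than in Tprog (3.82% and 2.73%), or 0 and 1 with quantile normalization. The first count was 2 without the Ttad replicate 1, 3 without the Tterm replicate 1 and 4 without the Tterm replicate 2, and the second was 0 without the Ttad replicate 1 and 1 without the Tprog replicate 1. Ifih1 peak 2 was lower in Ttad than in Tterm (-2.00 ± 0.36, adjusted p = 4.19e-05) in each of those fits.

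Over all 21 groups, most strongest peaks were high in the young groups. The following counts are of members alone. The share of all peaks above their own mean in each group was not computed, so a trait of all peaks is not set apart. In the 3 young OTC groups 32 to 35 of the 38 members lay above their own mean over the groups, and in the 4 aged OTC groups 4 to 10 did. The 4 aged Dusp5 groups had 4 to 8 members above the mean and the 4 aged Zfp219 groups 18 to 28. The young Dusp5 groups had 27 to 28 and the young Zfp219 groups 26 to 33. Young OTC Tprog held the highest group mean of 11 members, and aged Dusp5 Tterm the lowest of 15. The 2 libraries of aged Dusp5 Tterm had 13535015 and 5638413 reads in peaks, the latter the fewest of any library. The part of depth in these low values was not tested. The member with the least spread over groups was Gbp3, whose highest group mean was 1.34 times the lowest. Leaving aside Rtp4, Oas2 and Parp9, whose peaks had low values, the widest ratios were those of Samd9l (2.53 times, at the peak outside its gene body) and Rsad2 (2.49 times). Rsad2 ran from 125 in aged Dusp5 Tterm to 311 in young OTC Tprog. By Pearson's r of the 21 group means, the most alike pairs were Ifit3 with Rsad2 (0.883), Dtx3l with Ifi35 (0.878) and Oasl1 with Rsad2 (0.855), which share libraries and host age.

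**Figure D5:**
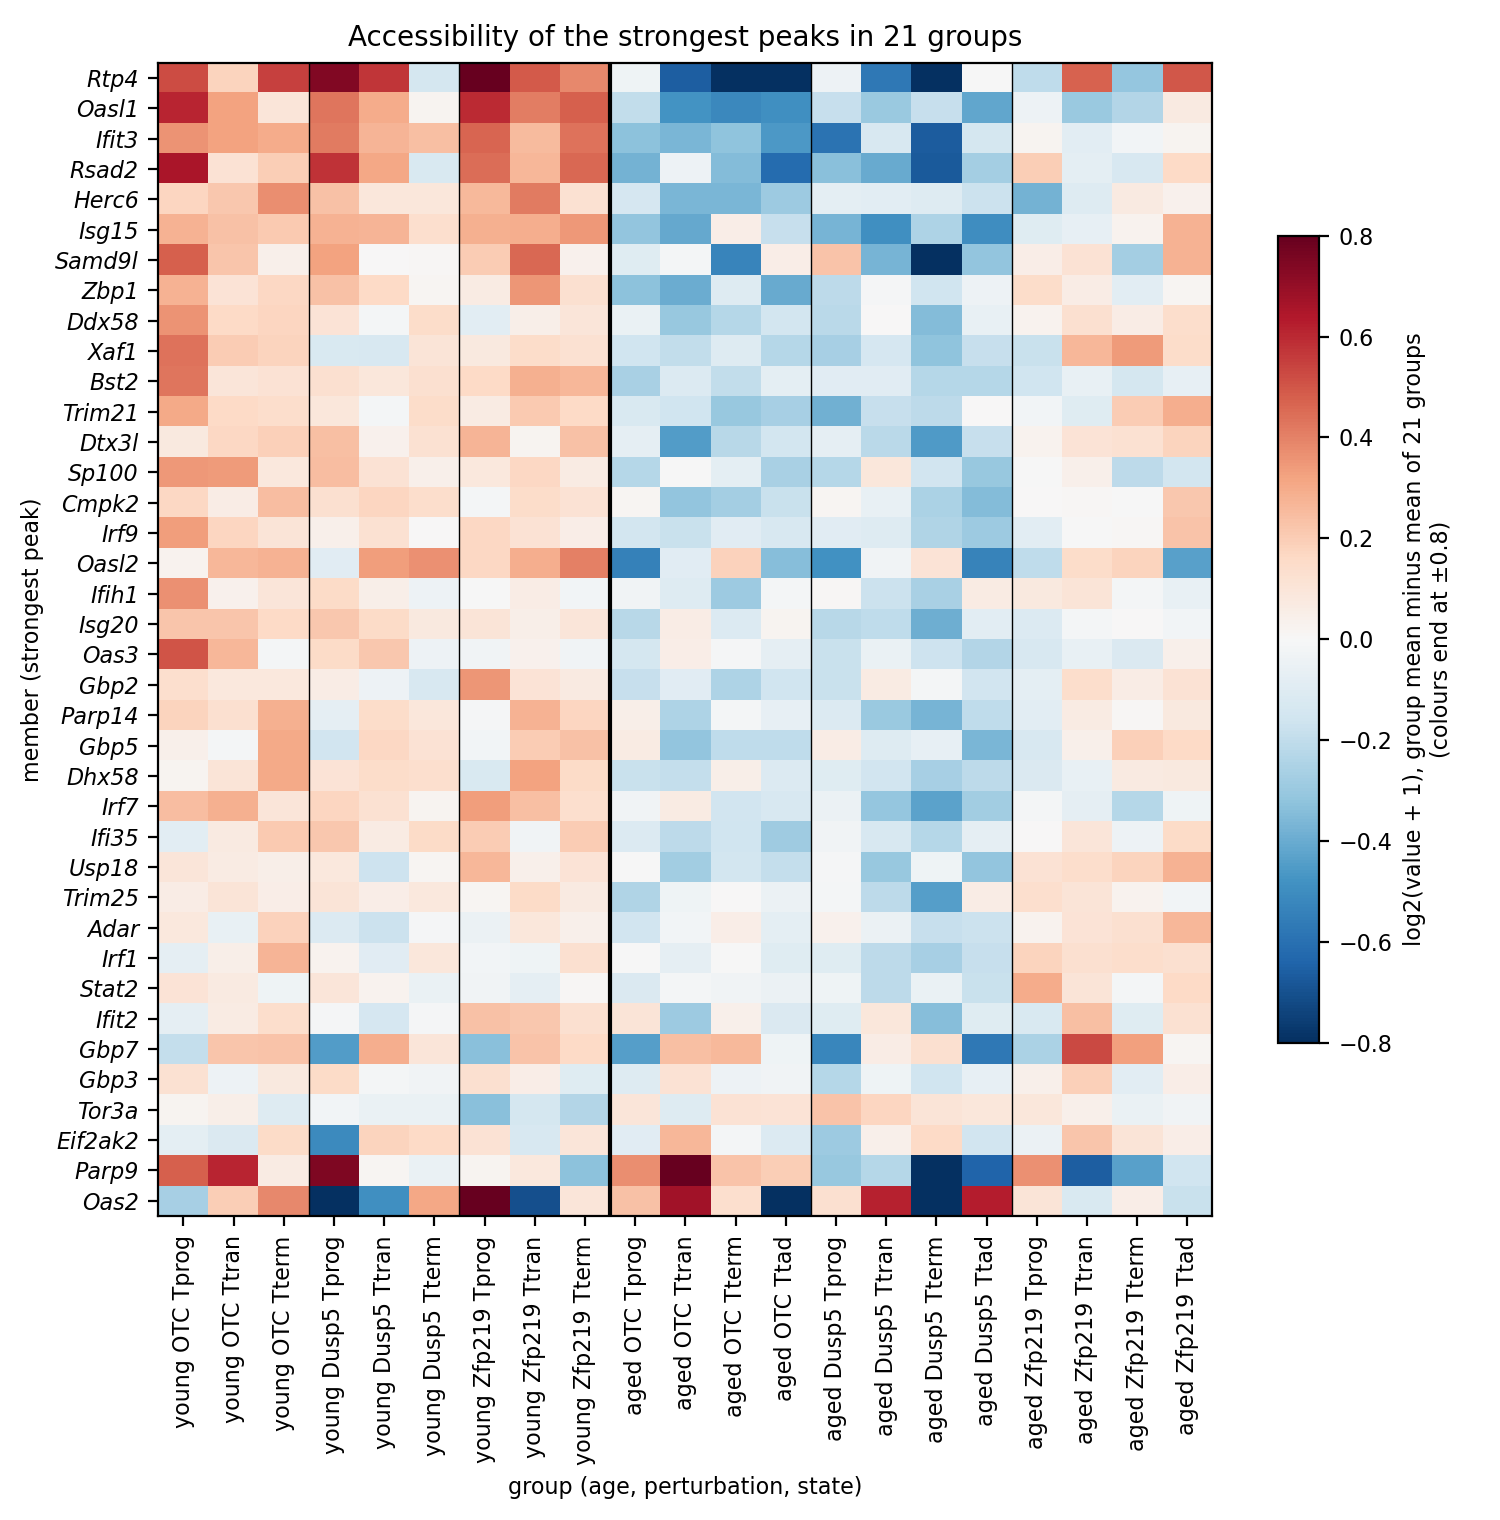
Group mean of log2(value + 1) minus the mean over 21 groups, for the strongest peak of each of the 38 members (vertical) in each group (horizontal), with red above and blue below the member's mean and colours that end at 0.8. Young OTC is mostly red (32 to 35 of 38 members), aged OTC and aged Dusp5 are mostly blue (4 to 10 members above their mean), and aged Zfp219 lies between. The counts are of members alone, and the matching share of all peaks was not computed.

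Start peaks with and without an ISRE match gave similar values, and the difference was not tested. Of the 14 with a match, 11 were lower and 0 higher with age in OTC (median -0.36), and 9 were higher and 0 lower in aged Zfp219 (median 0.24). Of the 18 without one, 14 were lower and 0 higher with age (median -0.30), and 9 were higher and 0 lower in aged Zfp219 (median 0.18).

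Other genes of the pathway gave calls in both directions. Of 62 listed genes that are not members, 60 had 297 peaks. With age in OTC cells 96 of these were lower and 39 higher (median -0.10), and in aged Zfp219 against OTC 47 were higher and 34 lower (median 0.04). Among all peaks 19.1% were lower and 17.3% higher with age, and 12.1% were higher and 13.7% lower with the knockout. Receptors and kinases, such as Ifnar1 and Jak1, had 22 peaks lower and 10 higher of 75 with age, and 9 higher and 12 lower with the knockout. Factors that were not members had 8 lower and 13 higher of 45 with age, and 5 higher and 7 lower with the knockout. Brakes on the pathway, Socs1, Socs3 and Ptpn2, had 13 lower and 2 higher of 20 with age, and 5 higher and 3 lower with the knockout. Further induced genes, such as Ifitm3 and Psmb8, had 47 lower and 8 higher of 119 with age, and 24 higher and 8 lower with the knockout.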

How the data were processed

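The deposited signal table holds 1 value per peak and library for 53868 peaks and 48 libraries, aligned to mm10. The submitters' processing notes list Bowtie2 2.2.9, Picard 2.8.0, SAMtools 1.3.1, MACS2 2.1.1 and DESeq2 1.28.1, with no role or order. Every signal value deposited by the authors was a whole multiple of 1 step per library (100% of values, within 0.01 reads), so reads per peak, divided by 1 factor per library, could be recovered. Duplicate filters, the Tn5 shift and whether peaks were called on pooled libraries are not given in the sources used here, and they could alter how many reads a peak holds. Peak coordinates are printed as the names in the table give them. Genes, promoter windows and sequences came from RefSeq tables (GRCm38.p6).

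The members, the gene lists and the comparisons were chosen with earlier results of these data known. The main test was limma 3.58.1 (R 4.3.3) with an intensity trend on log2(value + 1), fitted to all 48 libraries with 1 mean per group and no filter, and p-values were adjusted by Benjamini-Hochberg over all 53868 peaks, with a threshold of 0.05. Comparisons over several states weighted the states equally. The method was tested on simulated data. The text describes each member's strongest peak and, per comparison, names among called member peaks up to 8 with the largest rise and 8 with the largest fall, with strongest peaks of other members as contrast. Alternatives were a pseudocount of 8, leaving out the weakest 25% of peaks, quantile normalization, the compared groups alone, a replicate block, a single value per group, edgeR 4.0.16 with TMM scaling on recovered reads, peaks over gene bodies alone, and each library left out. Reads in peaks (5638413 to 29942755 per library) set the counting error.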

Additional observations from a re-analysis of the deposited data

Results flagged for a closer look

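For 15 member peaks the difference between Zfp219 and OTC cells was itself different between aged and young hosts, by limma's interaction test across all peaks. As log2 differences of the effect, aged minus young, these were 1.28 for Usp18 peak 3, 0.79 for Gbp7 peak 4, 0.68 for Sp100 peak 6, 0.60 for Sp100 peak 2, 0.57 for Sp100 peak 5 and 0.51 for Irf1 peak 6. They were 0.48 for Ddx58 peak 1, 0.45 for Xaf1 peak 1, 0.35 for Ifih1 peak 1, 0.33 for Irf1 peak 3, 0.32 for Zbp1 peak 1, 0.30 for Dtx3l peak 1, 0.26 for Stat2 peak 1 and 0.23 for Irf1 peak 1. Dtx3l peak 2 went the other way, at -0.38. Of the 14 refitted without each library, 8 lost the call at least once. The calls were lost without any 1 of 14 libraries for Xaf1 peak 1 (adjusted p up to 0.113), 13 for Stat2 peak 1 (up to 0.0964), 11 for Dtx3l peak 2 (up to 0.115), 10 for Ifih1 peak 1 (up to 0.0947) and 4 for Dtx3l peak 1 (up to 0.0657). Gbp7 peak 4 was not called without the aged Zfp219 Tterm replicate 2 (0.69, adjusted p = 0.0501). Sp100 peak 5 was not called without the aged Zfp219 Tprog replicate 2 or the young OTC Tprog replicate 1 (adjusted p up to 0.052). Irf1 peak 6 was not called without the aged Zfp219 Tprog replicate 1 or the young Zfp219 Tprog replicate 2 (adjusted p up to 0.0672).

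The effect of the Dusp5 knockout differed between the ages at 3 member peaks by the same test. The difference was 0.75 for Usp18 peak 3, 0.71 for Sp100 peak 5 and -0.51 for Dtx3l peak 2. These comparisons use the same OTC libraries as those of Zfp219, and the 3 peaks are also among those named for Zfp219.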

How the results depend on the processing

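Of 3132 values of 150 named peaks and comparisons under the alternatives, 2685 kept their direction and their side of the threshold, 440 kept the direction but not the call and 7 reversed. With 1 library left out, 305 of 2020 lost the call. The 50 calls by age in OTC and the counts called in aged Zfp219 moved by less than 1.5 times under pseudocount 8, the filter, quantile normalization, the compared groups alone, edgeR and body peaks. With ages compared in Zfp219 libraries the count was 29.

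With 1 value per group the count called in aged Zfp219 was 19, in young Zfp219 1, in aged Dusp5 0, in young Dusp5 0, for the Zfp219 effect 2 and for the Dusp5 effect 0; fewer values enter that fit. With the compared groups alone it was 0 in aged Ttran against Tterm, 10 in young Ttran against Tterm, 5 in Ttad against Tterm, 1 in Ttad against Tprog, 7 in aged Dusp5 and 7 in young Dusp5. edgeR gave 6 in young Ttran against Tterm, 5 in Ttad against Tterm and 7 in young Dusp5. Body peaks, which are fewer, gave 7 in aged Tprog against Tterm, 1 in aged Ttran against Tterm, 4 in Ttad against Tterm, 3 in young Zfp219, 9 in aged Dusp5, 1 in young Dusp5 and 1 for the Dusp5 effect. Quantile normalization gave 1 in Ttad against Tprog and 7 in aged Dusp5 (4 higher, 3 lower), and leaving out the weakest peaks gave 5 in young Ttran against Tterm. Against Dusp5 in place of OTC, young Zfp219 had 9. The cause of the other changes was not tested.

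The 7 reversals, each of a peak lower with age in OTC, were in Zfp219 libraries Usp18 peak 3 (0.0615), Xaf1 peak 1 (0.0238), Trim25 peak 1 (0.0063), Ifih1 peak 1 (0.0442), Ddx58 peak 1 (0.0508) and Usp18 peak 1 (0.0052), and in Dusp5 libraries Sp100 peak 3 (0.0357). None was called there (limma adjusted p of 0.672 to 0.973).

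With 1 library left out, counts ranged from 7 to 8 in aged Tprog against Tterm, 8 to 13 in young, 1 to 3 in aged Ttran against Tterm, 1 to 2 in young, 2 to 8 in Ttad against Tterm, 0 to 2 in Ttad against Tprog, 46 to 52 by age in OTC, 29 to 35 in aged Zfp219, 3 to 6 in young Zfp219, 10 to 15 in aged Dusp5, 1 to 4 in young Dusp5, 11 to 17 for the Zfp219 effect and 3 to 5 for the Dusp5 effect.

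With a replicate block the counts were 11, 18, 3, 3, 8, 3, 50, 34, 5, 14, 4, 15 and 3 in the same order. Correlations of same-numbered libraries ran from -0.06 to 0.058, so the numbers were not taken as pairs. Single-state comparisons with 1 value per group could not be fitted. Peaks with few reads, such as those of Oas2 and Parp9, gave wide errors.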
